A study of Rattus norvegicus with 4 samples.

Results

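Transcripts of LIM domain proteins of the actin cytoskeleton were followed in cultured rat aortic smooth muscle cells (strain Sprague-Dawley) exposed to IL-1b, interleukin-1 beta, a cytokine of inflammation. The genes were 6 PDZ-LIM genes (Ldb3, Pdlim1, Pdlim2, Pdlim3, Pdlim5 and Pdlim7), the cysteine-rich LIM genes Csrp1 and Csrp2, and the LIM-only genes Fhl1 and Fhl2. Every probe set whose platform annotation gave exactly 1 gene symbol, from these 10 genes, was taken. That gave 22 of the 31099 probe sets on the array (10 of 14217 genes with such a probe set), with 1 probe set for each of 5 genes and 2 to 6 for each of the other 5. All cells were grown with 10% serum for 5 days and kept serum-free for 3 days. For 24 hours thereafter, 2 samples were exposed to IL-1b at 2.5 ng/mL and 2 to the vehicle, 0.1% BSA (bovine serum albumin). Each sample has its own array of MAS5 intensities, which are brightness values on a linear scale. Whether samples of a group were separate cultures is not in the labels, so the p-values reflect the spread between arrays alone, which may be technical.

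A LIM domain is a zinc-binding fold that joins proteins to each other and does not act as an enzyme. In the PDZ-LIM family the PDZ domain binds alpha-actinin, the protein that crosslinks actin filaments in stress fibres, dense bodies and Z-discs, while the LIM domains hold kinases and other partners there. The Csrp and Fhl proteins consist mostly of LIM domains, and several of them move between actin filaments and the nucleus. Many genes of smooth muscle contraction are switched on by serum response factor (SRF), which binds a short DNA element called the CArG box.

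The IL-1b arrays were less alike than the vehicle arrays (Pearson r = 0.912 against 0.972 over tested probe sets on the log2 scale), and IL-1b replicate 1 stood apart. Its hybridisation controls, added in fixed amounts, read 3.53 times their vehicle mean, against 0.957 times on IL-1b replicate 2. Background, taken as the 95th percentile of 27 probe sets for bacterial transcripts that were dim on every array, was 76.7 and 18.8 on IL-1b replicates 1 and 2 and 29.4 and 26.9 on vehicle replicates 1 and 2. Of 9 smooth muscle markers, 7 were above background on all 4 arrays, and Mylk and Myocd were below it on IL-1b replicate 1. With IL-1b 8 of these 9 fell, and their summed intensity was 11763 and 8961 on the IL-1b arrays against 34189 and 34873 on the vehicle arrays. Of 6 fibroblast markers on the array 4 were above background on all arrays, with sums of 1606 and 2270 on the IL-1b arrays and 1222 and 1084 on the vehicle arrays. Of the 5 fibroblast markers tested 2 rose, Dpt (log2 fold change 3.34, limma adjusted p = 0.00183) and Pdgfra (1.80, adjusted p = 0.0306). Dpt was below background on vehicle replicate 1. The others did not pass, with log2 fold changes of 0.94 for Lum (adjusted p = 0.0784), -0.15 for Thy1 and -0.19 for Col15a1. Of 7 endothelial markers 0 were above background on all arrays, and of 7 macrophage markers Cd14 alone was. On all arrays 4 of these endothelial and 2 of these macrophage markers were below it. Esam, Tek and Csf1r were above it on both vehicle arrays and on IL-1b replicate 2. Of 9 cardiac and skeletal muscle markers Acta1 alone was above background on all arrays, while Myh7, Tnni3 and Tnnt3 were below it on all. The sums of these 9 were 588 and 179 on the IL-1b arrays against 2406 and 2349 on the vehicle arrays. Acta1, skeletal muscle actin, read 235 and 78.2 on the IL-1b arrays and 2213 and 2138 on the vehicle arrays (log2 fold change -3.94, limma adjusted p = 0.00159). The part of these markers in the LIM results was not tested.

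After 24 hours with IL-1b, 8 of the 10 LIM and PDZ-LIM genes had fallen, 0 had risen, and Pdlim1 and Pdlim3 did not pass the threshold. The changes that passed ran from 1.61-fold lower for Pdlim7 to 16.7-fold lower for Csrp2, at the brightest probe set of each gene. The threshold was an adjusted p of 0.05 in limma, a linear model that shares information on the spread between probe sets. Over all 10000 genes tested, 8.13% passed lower and 7.19% passed higher. The median log2 fold change of the 10 genes was -0.97, against -0.01 over all genes tested. At least 2-fold lower were 5 of the 10 genes (Csrp1, Csrp2, Fhl1, Ldb3 and Pdlim2), against 5.60% of all genes. Both IL-1b arrays lay below both vehicle arrays for 9 of the 10 genes, against 31.8% of all genes. Ldb3 passed the filter on dim values only through its vehicle arrays, and these counts and the median include it. In bulk RNA of this kind, fewer cells of a type and less RNA per cell cannot be told apart. The count of 8 became 4 without vehicle replicate 1 and 4 without vehicle replicate 2, in both cases Csrp1, Csrp2, Ldb3 and Pdlim2. Without IL-1b replicate 1, the array that stood apart, the log2 fold changes of the 8 genes ran from -4.30 for Ldb3 to -0.52 for Fhl2. That of Pdlim1 was -0.31. The IL-1b group was then assumed to vary as the vehicle arrays do, so a count from that run is not set beside the 8. Without a vehicle array the spread came from the IL-1b arrays alone, so the counts from those runs are not on the same footing as the 8. With each array centred on its median the count was 5, and without the intensity trend of the variance it was 4.

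**Figure D1:**
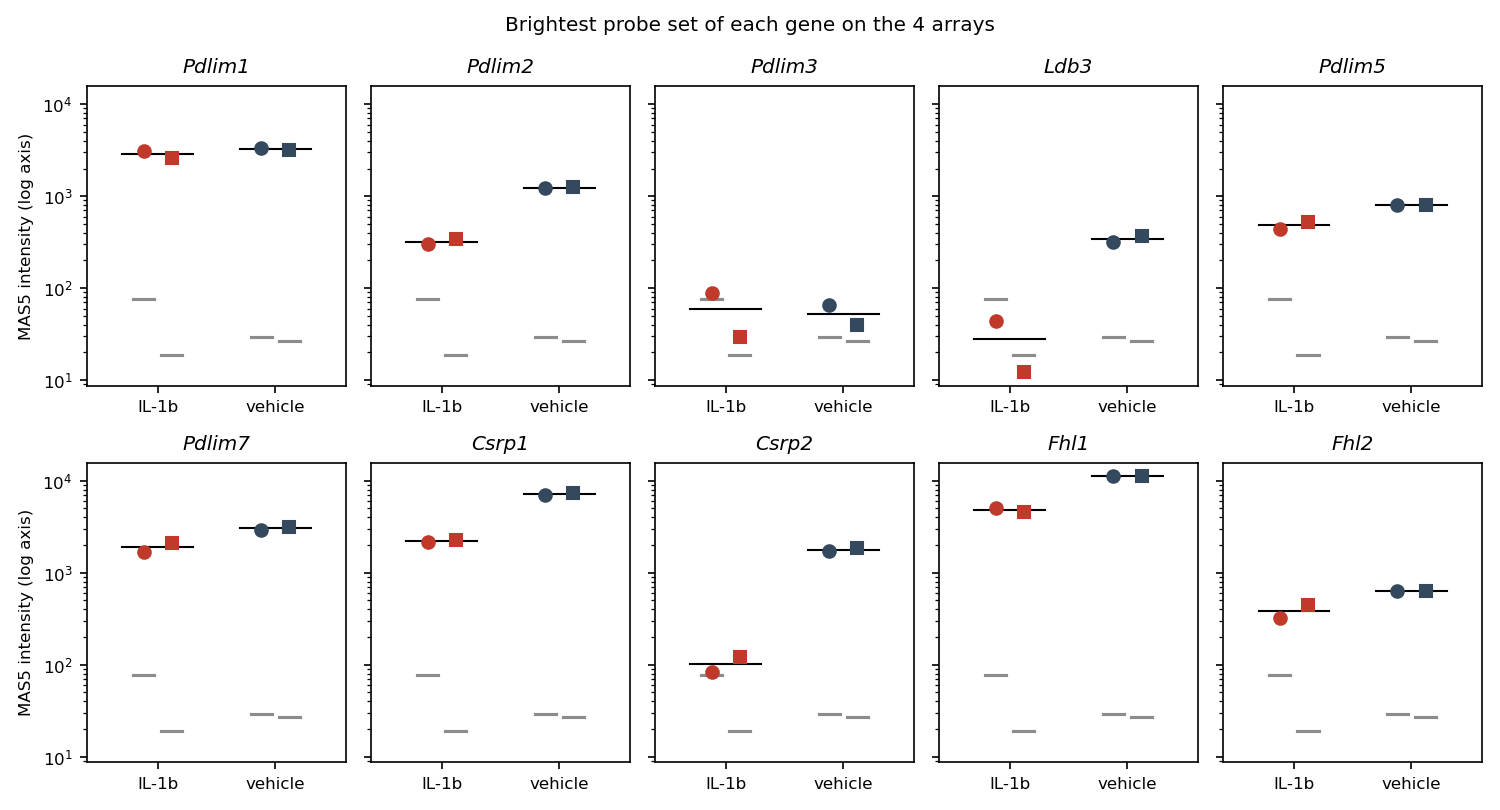
Each panel plots the MAS5 intensity of a gene's brightest probe set (log axis) on the 2 IL-1b arrays (red) and the 2 vehicle arrays (dark blue), with circles for replicate 1, squares for replicate 2, black lines for group means and grey ticks for the background of each array. Both IL-1b points lie below both vehicle points for 9 of the 10 genes, all but Pdlim3; heights are not comparable between panels.

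**Figure D2:**
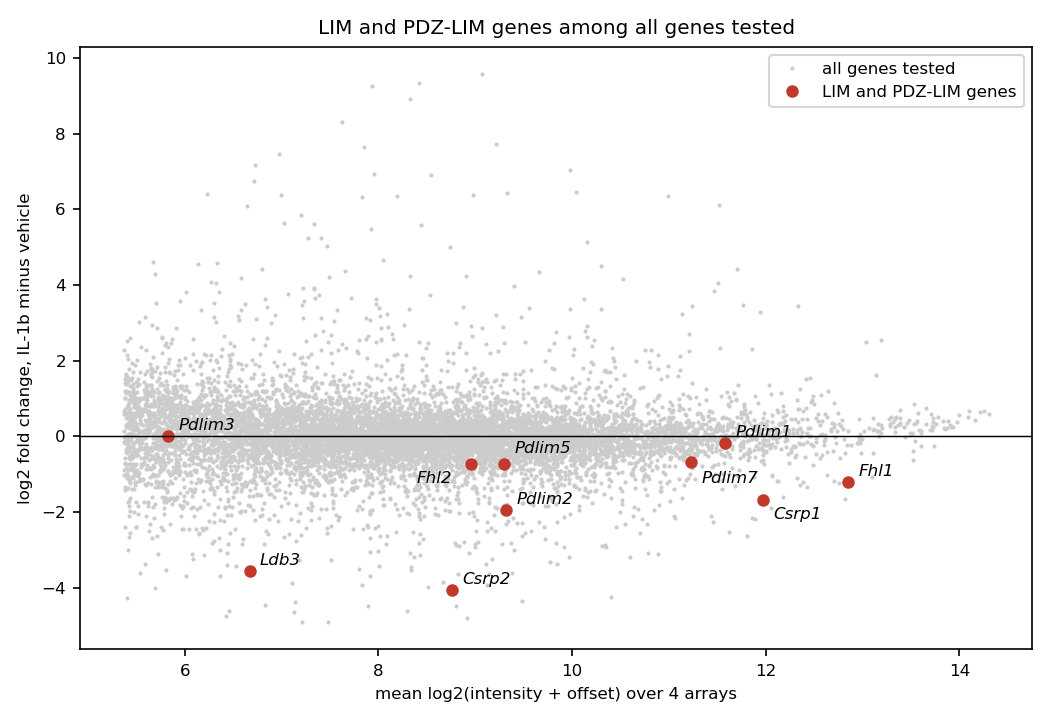
The log2 fold change of IL-1b minus vehicle is plotted against the mean log2 intensity over the 4 arrays for 10000 genes (grey), with the LIM and PDZ-LIM genes in red. The family lies at or below zero over the whole range of brightness, and Csrp2 (-4.07) and Ldb3 (-3.55) are near the lower edge of the cloud.

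The DNA around the start sites is shown for the members that hold a CArG box. Whether the box bears on the response to IL-1b was not tested. RefSeq promoter windows on the rat assembly GRCr8, each with 250 bases before and 50 bases after an annotated start, were matched for 8 of the 10 genes, in 10 windows. A CArG box, searched on both strands, was present in 4 of the 10 windows, those of Ldb3 and Fhl2 and 1 of the 2 of Fhl1, against 1.64% of 33469 rat windows. Counted by gene, it was present in 3 of 8, against 485 of 27457. In the lists described below, it was in 8.89% of windows of other LIM domain genes and 3.23% of windows of actin and adhesion plaque partners. Capitals mark the CArG box, and every window reads 5′ to 3′ along its gene's strand.
Ldb3, chr16:9924630-9924929, minus strand: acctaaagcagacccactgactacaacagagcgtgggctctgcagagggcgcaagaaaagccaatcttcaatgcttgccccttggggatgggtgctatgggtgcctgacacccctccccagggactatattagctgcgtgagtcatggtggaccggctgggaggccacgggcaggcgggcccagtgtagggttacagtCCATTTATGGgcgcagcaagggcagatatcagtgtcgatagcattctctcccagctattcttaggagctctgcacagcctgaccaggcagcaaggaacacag
Fhl1, chrX:139638246-139638545, plus strand: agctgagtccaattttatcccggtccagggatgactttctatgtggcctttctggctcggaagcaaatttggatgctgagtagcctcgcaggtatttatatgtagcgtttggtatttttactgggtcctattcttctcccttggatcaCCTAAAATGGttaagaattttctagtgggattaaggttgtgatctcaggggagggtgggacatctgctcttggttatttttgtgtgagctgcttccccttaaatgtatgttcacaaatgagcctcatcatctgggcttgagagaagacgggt
Fhl2, first window, chr9:52923277-52923576, minus strand: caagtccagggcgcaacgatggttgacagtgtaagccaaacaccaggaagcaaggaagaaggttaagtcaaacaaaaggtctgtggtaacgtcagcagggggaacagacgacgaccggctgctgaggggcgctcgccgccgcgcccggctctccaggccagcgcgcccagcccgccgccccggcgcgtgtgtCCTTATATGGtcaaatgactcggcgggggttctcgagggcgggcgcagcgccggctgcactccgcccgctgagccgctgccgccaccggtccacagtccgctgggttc
Fhl2, second window, chr9:52954491-52954790, minus strand: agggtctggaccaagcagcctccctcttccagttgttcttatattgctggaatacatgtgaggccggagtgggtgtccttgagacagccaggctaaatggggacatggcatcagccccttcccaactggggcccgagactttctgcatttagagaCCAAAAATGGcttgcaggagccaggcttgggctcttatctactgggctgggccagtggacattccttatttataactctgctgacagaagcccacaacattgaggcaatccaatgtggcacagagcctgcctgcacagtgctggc
The box began 52 bases before the start in Ldb3, 102 bases before it in Fhl1, and 58 and 95 bases before the starts of the first and second windows of Fhl2. These genes differed in their response, from at least 9.03-fold lower for Ldb3 to 1.67-fold lower for Fhl2. The windows of Pdlim1, Pdlim5, Pdlim7 and Csrp1 held no CArG box. The largest fitted fall of the 10 genes, that of Csrp2, came from a gene with no CArG box in its window, shown for comparison.
Csrp2, chr7:48235165-48235464, plus strand: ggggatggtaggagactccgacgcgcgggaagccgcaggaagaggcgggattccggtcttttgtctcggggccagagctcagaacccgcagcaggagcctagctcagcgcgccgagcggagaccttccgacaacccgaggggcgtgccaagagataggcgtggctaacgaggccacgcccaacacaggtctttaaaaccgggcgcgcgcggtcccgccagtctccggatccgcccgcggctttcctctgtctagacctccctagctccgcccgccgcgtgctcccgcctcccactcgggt
Among 655 genes that fell and had a window, 17 (2.60%) held a CArG box, against 9 of 585 that rose (1.54%) and 101 of 7177 that did not pass (1.41%). Other motifs searched on both strands were CATTCC (in 1 of the 10 windows, against 14.2% of all windows), TATAAA (2, against 14.2%), GGGCGG (5, against 33.1%), TGANTCA (1, against 7.33%) and the kappaB site (2, against 7.51%). The GGGCGG motif was in the windows of Pdlim1, Pdlim5, Pdlim7, Csrp2 and in the first window of Fhl2, and the kappaB site was in those of Pdlim5 and Pdlim7. These matches describe letters only and no binding was measured.

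Csrp1 and Csrp2 encode proteins that bind alpha-actinin and zyxin on actin filaments, and Csrp2, also called SmLIM, is known from arterial smooth muscle. Csrp2 read 83.2 and 122 on the IL-1b arrays against 1706 and 1841 on the vehicle arrays. The groups were far apart, and the IL-1b arrays held 4.69% and 6.86% of the vehicle mean. The level of IL-1b replicate 1 was just above that array's background of 76.7, and that of replicate 2 was well above its own. Csrp2 thus fell 16.7-fold (log2 fold change -4.07 ± 0.21, SE, 95% confidence interval -4.57 to -3.56, adjusted p = 9.49e-05). Csrp1 read 2163 and 2289 on the IL-1b arrays and 7040.0 and 7322 on the vehicle arrays. Its replicates lay close together, with 30.1% and 31.9% of the vehicle mean left on the IL-1b arrays. Its log2 fold change was -1.69 ± 0.15 (SE, 95% confidence interval -2.04 to -1.33, adjusted p = 5.88e-04), 3.22-fold lower. The confidence intervals of the Csrp genes, whose fits share the same arrays, did not overlap, and the difference between the genes was not tested. Both calls held without any single array, with log2 fold changes of -4.33 to -3.81 for Csrp2 and -1.73 to -1.65 for Csrp1.

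Ldb3 (also ZASP or Cypher) is a Z-disc protein of heart and skeletal muscle that binds alpha-actinin and protein kinase C. Its brightest probe set read 44.4 and 12.2 on the IL-1b arrays, against 321 and 367 on the vehicle arrays. Both IL-1b values were below the background of their arrays, so the decrease has only a bound, at least 9.03-fold (fitted log2 fold change -3.55 ± 0.53, SE, adjusted p = 0.00554). This bound compares the geometric mean of the vehicle arrays with the geometric mean of the higher of background and signal on each IL-1b array. All 3 tested probe sets of Ldb3 passed as lower. The probe set 1375303_at read 32.1 and 1.88 on the IL-1b arrays and 185 and 187 on the vehicle arrays, at least 4.90-fold lower (adjusted p = 0.0322). The probe set 1375982_at read 8.82 and 27.5 on the IL-1b arrays and 144 and 162 on the vehicle arrays (log2 fold change -2.86 ± 0.60, SE, adjusted p = 0.0223). Its reading on IL-1b replicate 1 was below the background of 76.7 there. Each of the 3 lost most of its signal on both IL-1b arrays, but the order of the IL-1b arrays differed among them. These probe sets passed the filter on dim values through their vehicle arrays, so that their agreement is no separate support. The other 3 probe sets were too dim to be tested, and for 2 of them both IL-1b arrays lay below both vehicle arrays. The log2 fold change of the brightest probe set was -4.30 when IL-1b replicate 1 was left out and -2.80 when replicate 2 was, and without the intensity trend the adjusted p was 0.0504.

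Pdlim2 (mystique) is a PDZ-LIM protein that, in mouse immune cells, also promotes the breakdown of the NF-kB subunit p65 in the nucleus. Its probe set read 301 and 338 on the IL-1b arrays against 1215 and 1272 on the vehicle arrays. The groups were well separated and the replicates of each group were close. This is a decrease of 3.85-fold, with a log2 fold change of -1.94 ± 0.15 (SE, 95% confidence interval -2.30 to -1.58, adjusted p = 3.58e-04). Leaving out any single array kept the call, with log2 fold changes of -2.03 to -1.86.

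Pdlim1 and Pdlim3, of the same subfamily with a single LIM domain, did not pass. Nor did Pdlim4, which was placed in the wider list of other LIM domain genes below (log2 fold change -0.08, adjusted p = 0.85). Pdlim1 (CLP36), which ties alpha-actinin on stress fibres to kinases, read 3117 and 2636 on the IL-1b arrays and 3351 and 3179 on the vehicle arrays. The IL-1b values were both lower, but by less than could be called: the log2 fold change was -0.19 ± 0.16 (SE, adjusted p = 0.488). Its 95% confidence interval was -0.56 to 0.18. Without IL-1b replicate 1 the log2 fold change was -0.31, in a run that took the spread from the vehicle arrays alone. Pdlim3 (ALP), known from the Z-lines of skeletal muscle, read 88.1 and 29.3 on the IL-1b arrays and 65.2 and 39.9 on the vehicle arrays. The IL-1b arrays lay on either side of the vehicle arrays, and the confidence interval of the log2 fold change ran from -1.56 to 1.58 (estimate 0.01, adjusted p = 0.994). Such an interval does not show that Pdlim3 was unaffected.

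Pdlim5 (ENH) and Pdlim7 (Enigma) have several LIM domains, as Ldb3 has, and bring protein kinases to the actin cytoskeleton. The brightest probe set of Pdlim5 read 439 and 529 on the IL-1b arrays and 797 and 809.6 on the vehicle arrays. Pdlim5 thus fell 1.66-fold (log2 fold change -0.73 ± 0.16, SE, adjusted p = 0.0275). The groups did not overlap at this probe set, but at the next one, 1372745_at, they did, with 75.9 and 29.1 on the IL-1b arrays and 72.8 and 60.9 on the vehicle arrays (adjusted p = 0.671). A further 2 probe sets of Pdlim5 were too dim to be tested. On them IL-1b replicate 1 read 81.2 and 102, while IL-1b replicate 2 read 21.4 and 5.00, and the vehicle arrays read 5.23 to 22.1. Those of IL-1b replicate 1 were above that array's background of 76.7, and IL-1b replicate 2 was within or just below the vehicle values. At 1394914_at both IL-1b arrays and neither vehicle array were above background. The bound there was at least 1.48-fold higher with IL-1b, although the groups overlapped. Pdlim7 read 1680.4 and 2119 on the IL-1b arrays against 2905 and 3179.9 on the vehicle arrays. It fell 1.61-fold (log2 fold change -0.69 ± 0.17, SE, adjusted p = 0.0395). The groups were again separate, and the dimmer probe set of Pdlim7 (18.9 and 62.6 on the IL-1b arrays, 120 and 92.4 on the vehicle arrays) gave -1.45 ± 0.61 and did not pass (adjusted p = 0.182). Both calls were lost without vehicle replicate 1 (adjusted p = 0.21 for Pdlim5 and 0.234 for Pdlim7) and without vehicle replicate 2 (0.25 and 0.404), and with each array centred on its median (0.195 and 0.115).

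**Figure D3:**
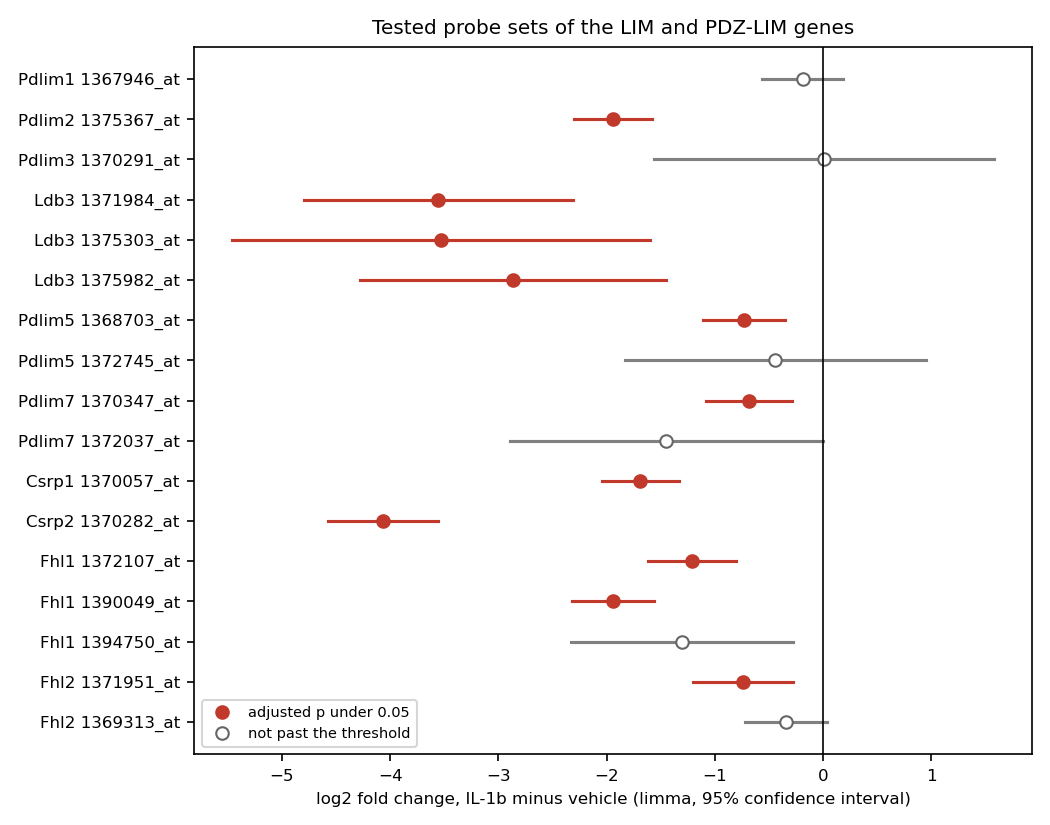
Each row is a tested probe set, with its log2 fold change of IL-1b minus vehicle and the unadjusted 95% confidence interval from limma. Filled red points passed an adjusted p of 0.05, 11 of 17 in all; 16 of the 17 estimates lie below zero, and the widest intervals belong to dim probe sets of Ldb3, Pdlim3, Pdlim5 and Pdlim7.

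Fhl1 and Fhl2 are built of LIM domains alone and serve as adaptors in muscle. Fhl2 is also a cofactor of transcription factors, SRF among them. Fhl1 read 5113 and 4589 on the IL-1b arrays and 11226 and 11176 on the vehicle arrays at its brightest probe set. The IL-1b arrays held 45.6% and 41.0% of the vehicle mean, well apart from the vehicle arrays (log2 fold change -1.21 ± 0.17, SE, adjusted p = 0.00476). A second probe set, 1390049_at, gave a larger decrease, with 1815 and 2068 on the IL-1b arrays and 7911 and 7010.2 on the vehicle arrays (log2 fold change -1.94 ± 0.16, SE, adjusted p = 4.45e-04). The confidence intervals of these probe sets were -1.62 to -0.80 and -2.32 to -1.56, which overlap only slightly, and the difference between the probe sets was not tested. The dimmest of its probe sets, 1394750_at, read 212 and 77.1 on the IL-1b arrays against 334 and 318 on the vehicle arrays and did not pass (adjusted p = 0.102). Without vehicle replicate 1 or 2 the brightest probe set missed the threshold (adjusted p = 0.0921 and 0.102), with log2 fold changes of -1.21 in both cases.

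Fhl2 read 324 and 441 on the IL-1b arrays and 639 and 630.2 on the vehicle arrays. The groups did not overlap, and the decrease of 1.67-fold (log2 fold change -0.74 ± 0.19, SE) was at the edge of the threshold (adjusted p = 0.0497). Its other probe set, 1369313_at, read 388 and 383 on the IL-1b arrays against 475 and 507 on the vehicle arrays and did not pass (log2 fold change -0.34 ± 0.16, SE, adjusted p = 0.224). The call was lost with no offset (adjusted p = 0.0518), with quantile normalization (0.0558), with a robust prior (0.0575) and without either vehicle array (0.261 and 0.258).

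Over all probe sets, 11 of the 17 tested members' probe sets fell and 0 rose, against 7.11% of the 18625 tested probe sets that fell. In 15 of the 17 the 2 IL-1b values were below the 2 vehicle values, against 29.1% of all tested probe sets. The remaining 5 of the 22 were below the filter on dim values. Of the 5 genes with several probe sets, Ldb3 had 3 of 3 tested probe sets lower, Fhl1 had 2 of 3, and Pdlim5, Pdlim7 and Fhl2 each had 1 of 2. Those of Ldb3 passed the filter on dim values through their vehicle arrays, so their agreement is no separate support. The counts of 11 and 15 include them.

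A wider list of 39 other genes with LIM domains had 30 genes tested, of which 11 fell, 1 rose and 18 did not pass. The median log2 fold change was -0.29. Over all genes tested 8.13% fell and 7.19% rose, with a median of -0.01. Lims2 (PINCH2), which joins integrin-linked kinase at adhesion sites, fell by 3.99 on the log2 scale (adjusted p = 4.68e-04), to 128 and 57.5 on the IL-1b arrays against 1411 and 1495 on the vehicle arrays. The log2 fold change was -3.64 for Lmcd1 (dyxin, adjusted p = 5.1e-05), -1.84 for Ajuba and -1.40 for Fblim1 (migfilin, which links filamin to adhesion sites). The member that rose was Fhl3, a close relative of Fhl1 and Fhl2. It read 1184 and 947 on the IL-1b arrays and 512 and 458 on the vehicle arrays, 1.12 ± 0.17 higher on the log2 scale (SE, adjusted p = 0.00632). The Fhl genes thus passed in opposite directions, Fhl3 upward and Fhl1 and Fhl2 downward, with Fhl2 at the edge of the threshold. With each array centred on its median neither Fhl3 nor Fhl2 passed (adjusted p = 0.173 and 0.204). The same held without the intensity trend (adjusted p = 0.0706 and 0.165). Zyx (zyxin), a partner of the Csrp proteins, missed the threshold at -0.62 ± 0.16 (log2, SE, adjusted p = 0.0518). With all arrays kept, its adjusted p in limma ranged from 0.00836 under quantile normalization to 0.174 when the variance had no trend. When a single array was left out, its log2 fold change ran from -0.74 (IL-1b replicate 1 out) to -0.49 (IL-1b replicate 2 out). Those runs took the spread of a group from the other group, so no call for Zyx is drawn from them.

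Genes for actin crosslinkers and adhesion plaque proteins, the structures on which the LIM proteins sit, made up the other list. Of 34 listed genes 27 were tested, of which 14 fell, 0 rose and 13 did not pass at the brightest probe set, with a median log2 fold change of -0.80. A dimmer probe set of Synpo, 1387501_at, rose (log2 fold change 1.37, adjusted p = 0.0238). The brightest probe set of Synpo did not pass (-0.27, adjusted p = 0.323). The shares over all genes tested were again 8.13% lower and 7.19% higher, with a median of -0.01. Synpo2 (myopodin), which bundles actin with alpha-actinin and filamin, had a log2 fold change of -4.60, with 61.5 and 55.1 on the IL-1b arrays against 1580.3 and 1508 on the vehicle arrays (adjusted p = 3.45e-05). The reading of this brightest probe set on IL-1b replicate 1 was below background. Other tested probe sets of Synpo2 gave smaller log2 fold changes in limma. They were -1.41 at 1371679_at (adjusted p = 0.00762) and -0.82 at 1384160_at, which did not pass (adjusted p = 0.187). The log2 fold change was -2.64 for Nexn (nexilin, an actin filament binder), -2.39 for Svil (supervillin) and -2.12 for Tns1 (a tensin), and all 3 passed. Among the alpha-actinin genes, the direct partners of the PDZ-LIM proteins, Actn4 fell by 1.03 ± 0.16 (log2, SE, adjusted p = 0.00735), while the brightest probe set of Actn1 did not pass, at -0.55 ± 0.16 (adjusted p = 0.0756). The other probe set of Actn1 did, at -1.22 ± 0.17 (adjusted p = 0.00456). Actn4 missed the threshold without vehicle replicate 2 (adjusted p = 0.113). Fewer of the partner genes passed without either vehicle array, and more did without either IL-1b array. In such runs the spread of a group was taken from the other group.

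**Figure D4:**
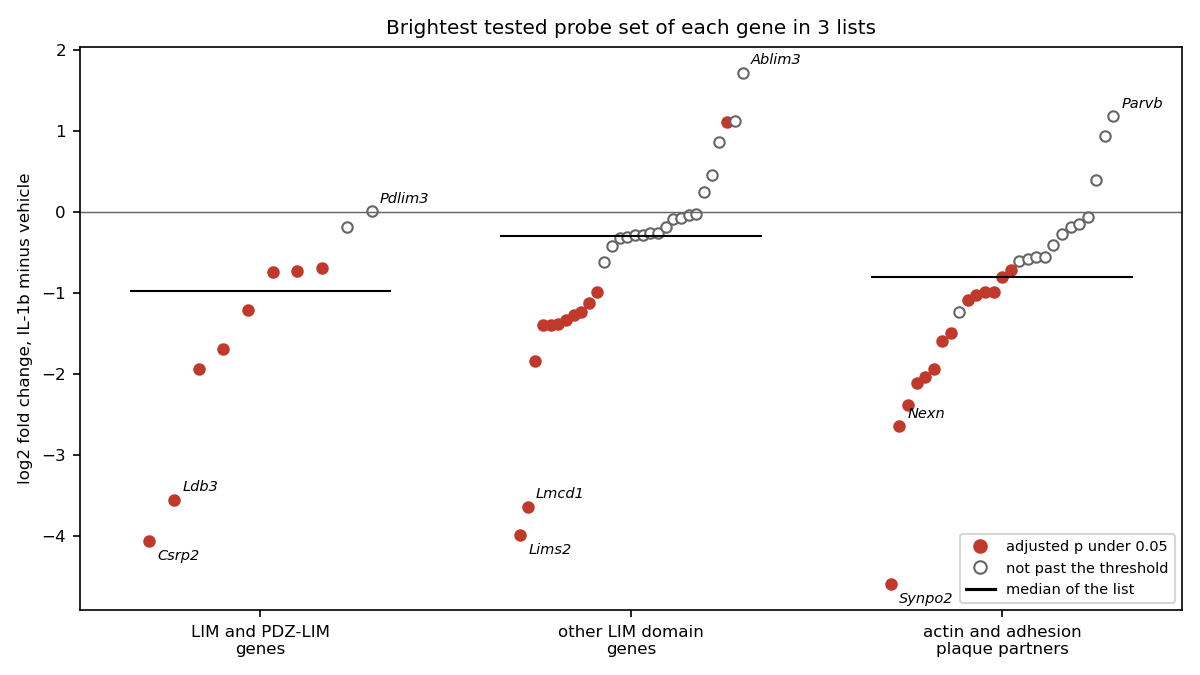
The log2 fold change of IL-1b minus vehicle is shown for the brightest tested probe set of each gene, ordered within its list, with lists from left to right of 10, 30 and 27 genes tested. Red points passed an adjusted p of 0.05 and black lines are medians, at -0.97, -0.29 and -0.80; Fhl3 is the red point above zero.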

How the data were processed

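Biotin-labelled RNA of 4 samples was read on 1 array each, per the labels' protocols. The authors deposited linear probe set intensities, for which the submitters' processing notes name MAS5, with version and settings not given in the sources used here. Without its lowest and highest 2%, each array had a mean of 250.1, so nothing was rescaled. Detection calls were not used here.

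Before log2, 5.49 was added (the 10th percentile of the values), which understates changes of dim genes. Without the 57 control probe sets, 18625 probe sets with a mean log2 value at or above the 40th percentile (5.37) entered lmFit and eBayes (with an intensity trend) of limma 3.58.1, under R 4.3.3, and p values were adjusted by Benjamini-Hochberg over all of them. A gene was represented by its brightest tested probe set with 1 annotated symbol (20826 probe sets had 1 symbol, 436 had several, 9780 were not listed). Named genes were all members and, of each other list, up to 4 lower and 4 higher genes with the largest change past the threshold. Zyx, Actn1, Actn4, Synpo, Pdlim4 and the cell type markers given by name were named after their values were seen. Members, lists and motifs were chosen with earlier results of these data known. The procedure was tested on simulated data. The number of arrays limits the precision.

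Alternatives were the offset, scaling, filter, trend, prior, threshold, choice of probe set, the replicate number as a block, and leaving out each array. Where an array was left out, its partner was assumed to vary as the other group does.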

Additional observations from a re-analysis of the deposited data

How the results depend on the processing

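The 5 counts reported, each with the same threshold, varied with the processing. The 2503 probe sets past the threshold became 1637 with median centring, 963 without the intensity trend, 1222 at an adjusted p under 0.01, and 1357 to 8666 when a single array was left out. The 8 LIM and PDZ-LIM genes became 5 with median centring, at an adjusted p under 0.01, at least 2-fold, and with the median over probe sets of a gene, and 4 without the intensity trend. Leaving out an array gave 4 to 9 genes, the highest without IL-1b replicate 1, where Pdlim1 was added. Their 11 probe sets became 5 without the intensity trend, 6 at an adjusted p under 0.01, and 5 to 13 when an array was left out. The 12 other LIM domain genes became 7 and the 14 partners became 7 without the intensity trend, and the partners ranged from 8 to 22 when an array was left out. The estimate for Pdlim3 of 0.01 was -0.0055 with no offset, -0.20 with quantile normalization, -0.19 with median centring, and -0.70 to 0.72 when an array was left out (-0.31 without vehicle replicate 2), and it passed in none of these. The cause of these shifts was not tested. In no alternative run did Csrp1, Csrp2 or Pdlim2 miss the threshold, whereas Fhl2 missed it in 10 of 16, Pdlim5 and Pdlim7 in 7 each, Fhl1 in 2 and Ldb3 in 1 of 15. The same alternatives were run, after the data were examined, for the named genes of the other lists except Synpo and Pdlim4.

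Median centring moved the median of all genes to -0.21, and 64.6% of the genes that passed were then lower, against 53.1% as reported. With the replicate number as a block, 8 LIM and PDZ-LIM genes passed, the same 8 as without it, and no other count reported moved by over 1.5 times. The deviations of same-numbered arrays correlated at 0.09 between the groups, and the labels give no meaning to the number. Ldb3 and Pdlim3 have no value with the filter at the 60th percentile, because their probe sets are too dim.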
